A study of Mus musculus with 2 samples.

Results

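Aminoacyl-tRNA synthetases are the enzymes that join each amino acid to its transfer RNA (tRNA). Their transcripts were compared between Ecm1 knockout and wild-type T helper 2 (Th2) cells. Members were taken from the platform annotation by symbol patterns that use no measured values, but the family was chosen with earlier results of these data known. The symbol patterns found 36 of the 18193 genes with a probe set naming that gene alone, of which 20 encode cytosolic enzymes and 16 mitochondrial enzymes. Gars and Kars encode the enzyme of both compartments and were counted as cytosolic. Tarsl2, a further threonyl-tRNA synthetase, was also counted as cytosolic in spite of the 2 that ends its symbol.

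Each array held RNA of CD4 cells taken with magnetic beads from the spleens of C57BL/6 mice, described as 6-week-old females, and kept for 4 days in Th2 culture. Anti-CD3 was coated on the plate at 3 µg/ml and anti-CD28 was given in solution at 2 µg/ml. IL-4 was present (its unit is incomplete in the label), as were anti-IFN-γ and anti-IL-12 at 10 µg/ml each. The groups were knockout of Ecm1, a gene for a secreted matrix glycoprotein, and wild type, with 1 array each. The sources used here do not give the number of animals or how the Ecm1 allele was made. With 1 array per group there was no test and no spread between replicates, and every value below describes these 2 arrays only.

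The targeted gene and the cell type were checked first. Ecm1 read 29114.7 in wild type and 19.3, below the floor, in the knockout. The Y-linked Eif2s3y read 2214.4 in knockout and 25.0 in wild-type cells. The 3 Xist probe sets were at 38.7%, 48.0% and 44.2% of wild type in the knockout, although both samples are labelled female. A difference in donor sex between the arrays cannot be told apart from genotype here. T cell markers were well above background on both arrays, each of the 11 genes lower in the knockout. Their summed signals were 67270.7 in knockout and 125260.7 in wild-type cells. The sums were 156117.7 and 80226.9 for plasma cell markers and 40100.0 and 20570.8 for B cell markers. The RNA was thus not that of T cells alone on either array. Some sample text names liver, but all 11 hepatocyte genes on the array were below the floor on at least 1 array, and albumin (Alb) read 24.1 and 4.8. The floor was the median signal of each array, 65.5 in knockout and 69.2 in wild-type cells.

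In the cytosol, charged tRNAs are handed to elongation factors and used by the ribosome. When an amino acid runs short, uncharged tRNA activates the kinase GCN2, and the stress pathway that follows increases translation of the transcription factor ATF4, which turns on amino acid transporters, biosynthetic enzymes and many cytosolic synthetases. Mitochondria translate their own few proteins with a separate set of nuclear-encoded synthetases. T cells that have been activated, and plasma cells, make much protein and need many charged tRNAs.

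Most cytosolic enzymes stood higher on the knockout array, while the mitochondrial enzymes lay on both sides of 0. A gene is called measured where neither array fell below the floor, which held for all 20 cytosolic synthetases. Of these, 8 were higher in the knockout by 2-fold or more, 0 were lower by that much, and 12 had smaller differences. Their median log2 difference, knockout minus wild type, was 0.91. Among all 10144 measured genes, 7.15% were 2-fold or more higher and the median was 0.04. Of the cytosolic enzymes 18 lay above 0, as did 53.1% of all measured genes, and the count of 18 was the same without centring, with no floor and after quantile or loess scaling. It was 17 of 18 with a higher floor, 16 of 19 with probe sets averaged and 17 of 20 on leaving out _x_at and _s_at probe sets. Of the 14 measured mitochondrial enzymes, 1 passed 2-fold upward and 1 downward, with a median of 0.16, and 4.45% of all measured genes were lower by 2-fold or more. Differences are on the log2 scale after centring, which subtracted the array-wide median of -0.10 from each. Without it, 587 of all measured genes passed 2-fold upward and 611 downward, against 725 and 451 with it, and 7 cytosolic synthetases passed upward.

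**Figure D1:**
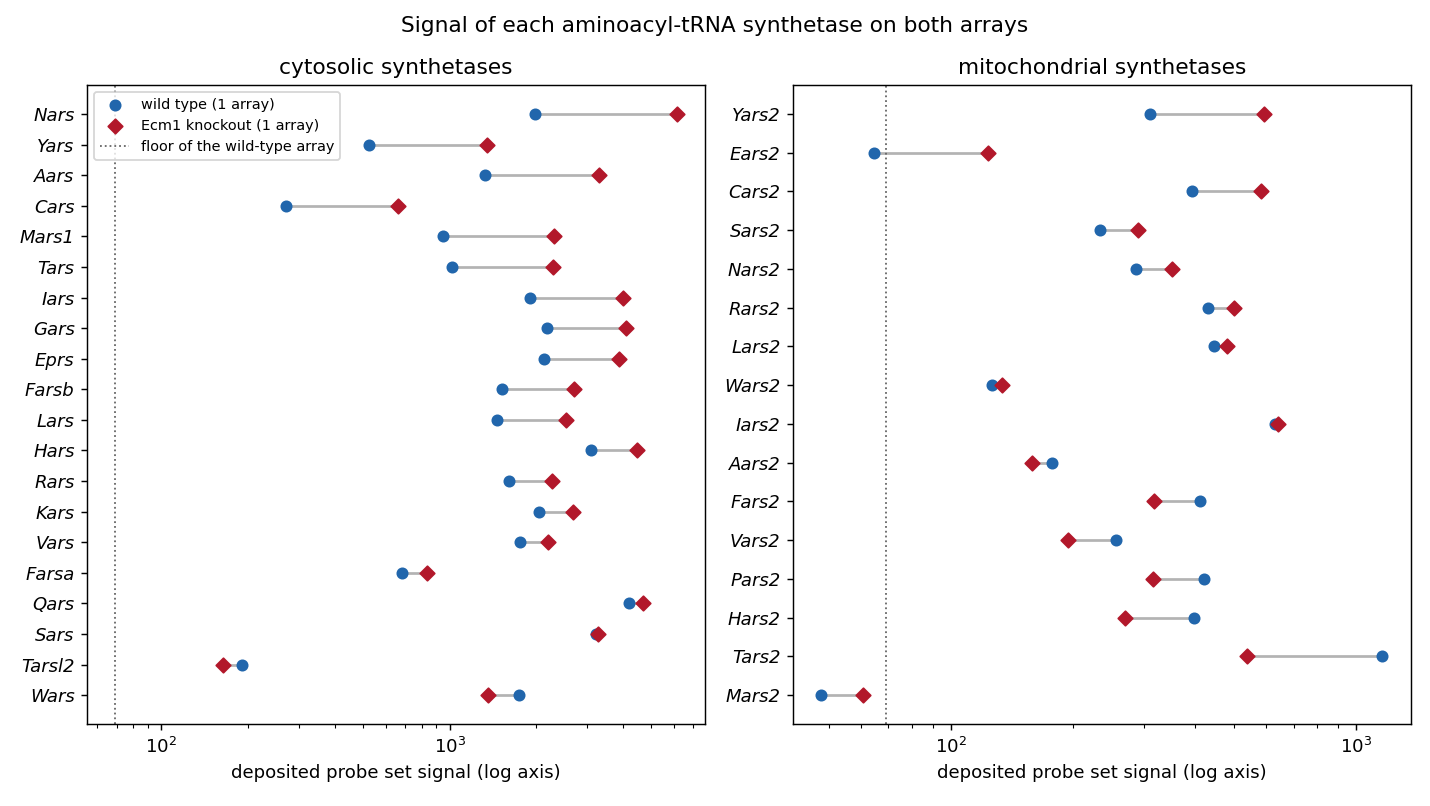
Deposited probe set signal (log axis) of the 36 synthetase genes, 1 circle for the wild-type array and 1 diamond for the Ecm1 knockout array, sorted by centred difference within each compartment. The diamonds of the upper cytosolic rows lie well to the right of their circles, up to Nars at 6130.8 against 1986.3, while mitochondrial rows go both ways. Signals of different genes come from different probe sets, so positions should be read along a row only.

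Nars, which charges tRNA with asparagine, had the largest difference of the members. It read 6130.8 in knockout and 1986.3 in wild-type cells, a 3.31-fold difference after centring, at rank 172 of 10144 genes counted from the highest. Its other probe set read 4195.6 and 1942.9, so both probe sets were higher on the knockout array and both passed 2-fold (1.73 and 1.21).

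Yars, the tyrosine enzyme, read 1351.4 in knockout and 526.5 in wild-type cells (log2 difference 1.46). Aars, the alanine enzyme, read 3294.1 and 1329.2 (1.41), and its other probe set 843.4 and 455.2 (0.99). Cars, for cysteine, read 664.6 and 270.8 (1.40). These 3 enzymes were of similar size in their difference, each between 2.64-fold and 2.76-fold higher on the knockout array.

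Mars1, which charges methionine onto the initiator and elongator tRNAs, read 2299.4 in knockout and 950.1 in wild-type cells (1.38). Tars, for threonine, read 2284.6 and 1020.5 (1.27). Iars, for isoleucine, read 3996.9 and 1902.0 (1.17), with 1.26 in its other probe set. Gars, for glycine, read 4082.2 and 2171.1 and stood just past 2-fold (1.01). It was the lowest of the 8, and just outside came Eprs (0.97), a fused enzyme for glutamate and proline, and Farsb (0.94), a subunit of the phenylalanine enzyme.

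Promoter windows of some members held a common element, described here beside these values. ATF4 is known to bind, as a dimer with C/EBP proteins, elements that hold the 8 letters TGATGNAA, where N is any base. These letters, and an E-box (below), were searched on both strands of the RefSeq windows of GRCm38.p6, which run from 250 bases before each gene's start to 50 bases from it. Windows were found for 27 of the 36 members. The element was found in 5 of them, Aars, Gars, Iars, Tars and Yars, each a cytosolic enzyme past 2-fold upward. Of the cytosolic members with a window, 6 were past 2-fold, and the element was present in 5 of these and in 0 of the 7 within 2-fold. It was in 0 of the 14 mitochondrial windows, in 2.65% of the 8308 measured genes with a window and in 4.51% of all 27025 genes in the table. The motif was chosen with the members' values known, so the counts are a description of these windows. The split at 2-fold also depends on the settings, since Gars was at 0.91 without centring and Aars at 0.99 in its other probe set.

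The matches in 4 of these genes, with a window of 30 bases around each, read from 5′ to 3′ on the gene's strand with the match in capitals, are shown because they carry that overlap. In Yars the letters lie on the gene's own strand, and in the other sequences on the opposite strand, where they read as TTGCATCA or TTTCATCA.
Gars, chr6:55037960-55037989, + strand, 30 bases before the start:
Gars match: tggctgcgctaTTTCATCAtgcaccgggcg
Iars, chr13:49682126-49682155, + strand, base 8 of the transcript:
Iars match: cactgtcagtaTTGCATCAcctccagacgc
Tars, chr15:11399655-11399684, - strand, 15 bases before the start:
Tars match: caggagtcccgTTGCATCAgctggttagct
Yars, chr4:129189895-129189924, + strand, base 4 of the transcript:
Yars match: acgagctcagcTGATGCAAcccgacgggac
These 4 matches begin within 30 bases of the annotated start. In Aars, not shown, matches begin 112 bases before the start and at base 10 of the transcript.

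The 250 bases before the start of Sars also follow. Sars was picked with its value seen, as a gene commonly listed as an ATF4 target that hardly differed between the arrays (0.13). Sars had neither the 8 letters above nor the E-box CACGTG, the element bound by MYC and related factors, in this window.
Sars, chr3:108445260-108445509, - strand: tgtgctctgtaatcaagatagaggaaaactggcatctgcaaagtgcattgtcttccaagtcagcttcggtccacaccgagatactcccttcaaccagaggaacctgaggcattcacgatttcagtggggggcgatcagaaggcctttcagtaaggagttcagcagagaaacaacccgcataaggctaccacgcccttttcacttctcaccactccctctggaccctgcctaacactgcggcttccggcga
The E-box reads the same on both strands. It was found in 5 of the 27 windows, those of Aars, Iars, Tars, Farsb and Ears2, and in 12.2% of the measured genes with a window and 8.09% of all genes in the table. Among cytosolic members with a window it was in 3 of the 6 past 2-fold and 1 of the 7 within 2-fold. It overlapped no ATF4-type match in these windows. Mars1, past 2-fold, and Eprs and Farsb, just under it, had no ATF4-type match in theirs. Nars and Cars, also past 2-fold, had no window to search. Whether either motif has a part in the differences was not tested.

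**Figure D2:**
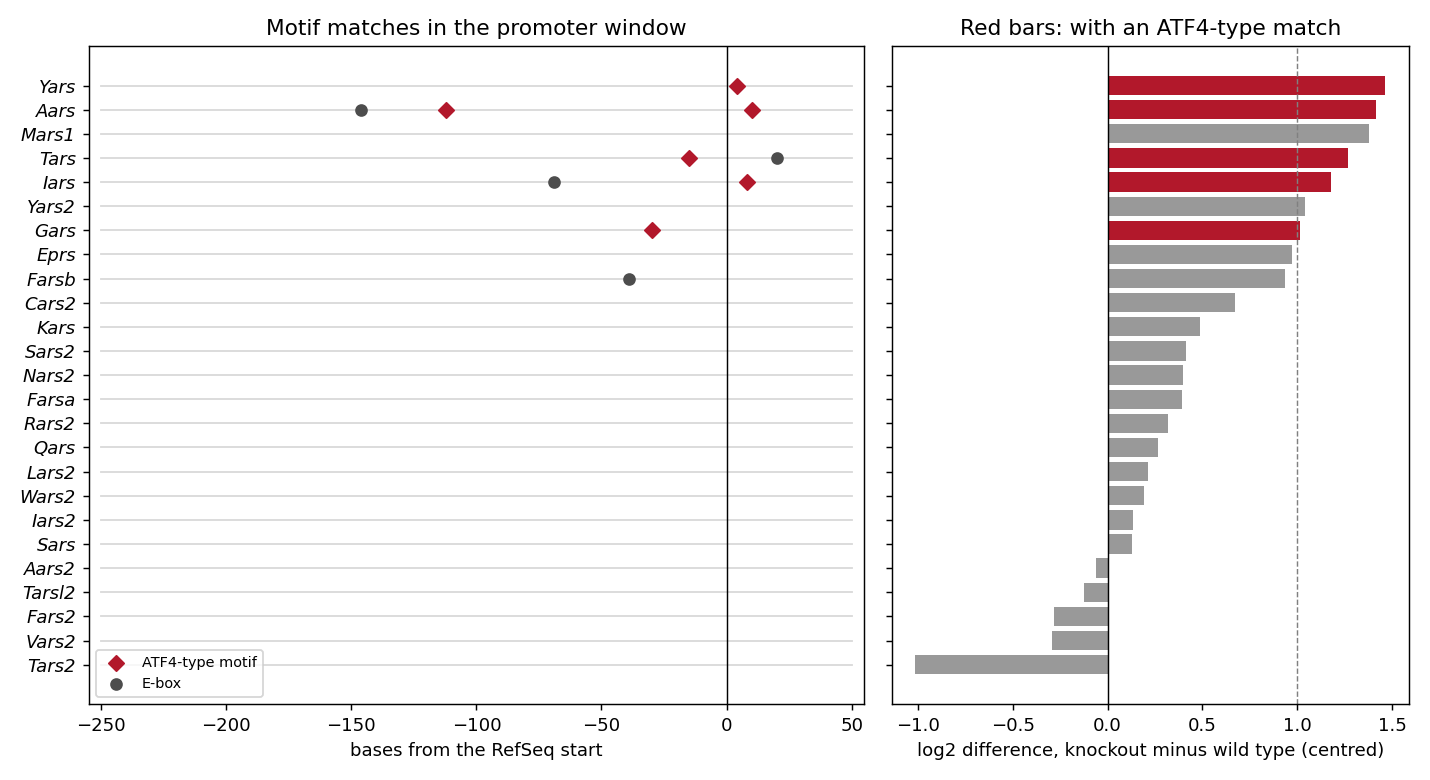
Left, first base of each ATF4-type motif (diamonds) and E-box (circles) match in the windows of the 25 members with a promoter entry that were measured on both arrays, in bases from the RefSeq start; right, the centred log2 difference of the same genes, with the 2-fold line dashed. The 5 red bars, genes with an ATF4-type match, lie between 1.01 and 1.46.

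The 8 cytosolic members past 2-fold were all among the enzymes commonly listed as ATF4 targets. That list has 13 members on the array, of which 8 passed 2-fold upward and 5 were within 2-fold, with a median difference of 1.17. The 7 cytosolic members outside the list had a median of 0.48, and 0 of them passed 2-fold in either direction. The list was put together with earlier results of these arrays known, so its median is not independent evidence.

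The listed enzymes within 2-fold were Eprs, Lars, Vars, Sars and Wars. Lars, for leucine, read 2525.6 in knockout and 1461.7 in wild-type cells (0.89). Vars, for valine, read 2194.9 and 1755.8 (0.42). Sars, for serine, read 3269.3 and 3214.4 (0.13), and its other probe set 2974.2 and 2823.6 (0.18), so the arrays were nearly level for it. Wars, the tryptophan enzyme, which interferon-γ also induces, read 1356.0 in knockout and 1739.6 in wild-type cells (-0.26). Of its 4 probe sets 3 were lower in the knockout and the dimmest was higher, at 262.8 against 214.2 (0.40).

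Eprs was measured by 4 probe sets. The brightest read 3862.9 and 2120.1, and the next 2 gave differences of 0.78 and 1.42. The dimmest, near the floor at 87.9 and 142.9, went the other way (-0.60). The fused enzyme was thus higher on the knockout array in each of its bright probe sets.

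Among the cytosolic enzymes outside the ATF4 list, the subunits of the phenylalanine enzyme differed most within their own probe sets. Farsb read 2704.2 and 1518.3 in its brightest probe set (0.94), and 2 further probe sets gave 0.80 and 1.61. Its other probe set, at 425.0 and 797.9, was lower in the knockout (-0.81), and that value stands for the gene when probe sets ending in _x_at or _s_at are left out. Farsa read 832.6 and 682.0 (0.39), while its other measured probe set, near the floor at 69.1 and 119.8, was at -0.69, and the mean over its probe sets was -0.59.

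The remaining members of this set were all within 2-fold. Hars, for histidine, read 4465.0 in knockout and 3085.7 in wild-type cells (0.64), with 0.51 in its other probe set. Rars, for arginine, read 2270.5 and 1612.0 (0.60), and Kars, for lysine, 2671.5 and 2050.1 (0.48). Qars, for glutamine, read 4684.7 and 4182.3 (0.27), with 0.22 and 0.07 in its other probe sets measured on both arrays. Tarsl2 read 163.6 and 191.2 (-0.12) and, with Wars, was the other cytosolic member below 0.

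**Figure D3:**
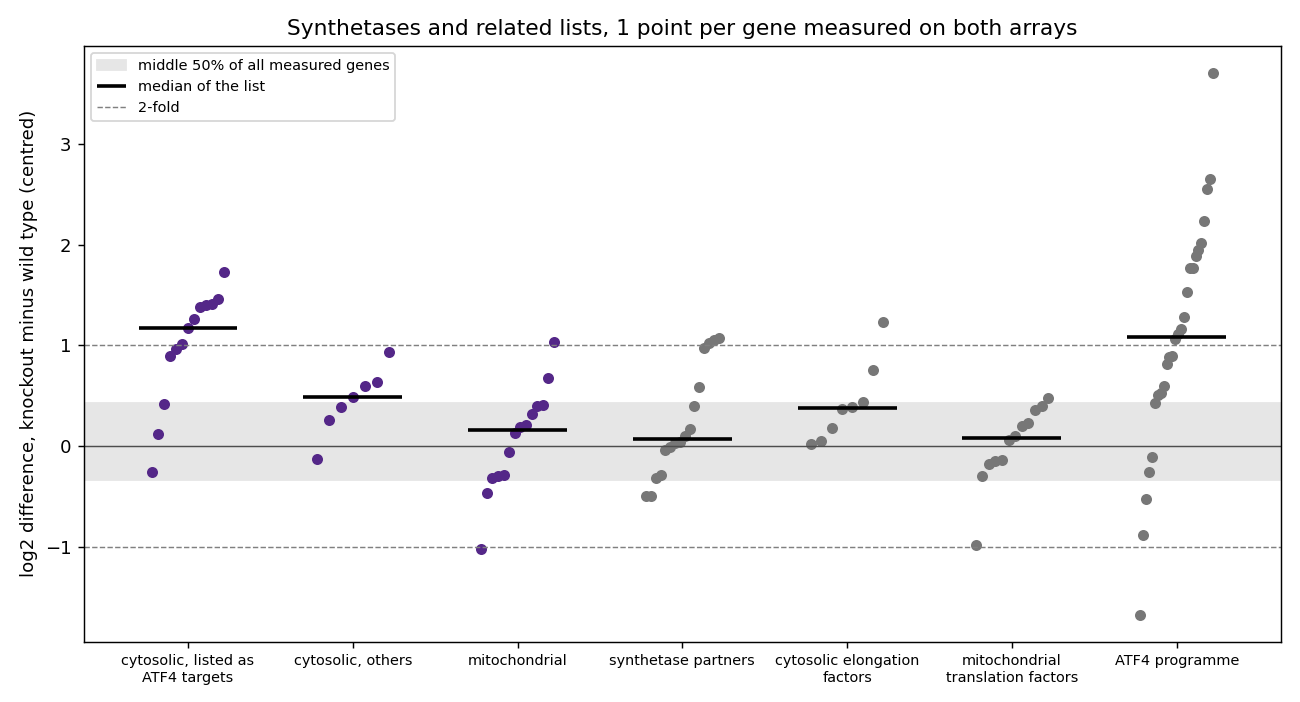
Centred log2 difference of each gene measured on both arrays, 1 point per gene, for the synthetases (purple) and related lists (grey), with black bars at the list medians and dashed lines at 2-fold. The grey band holds the middle 50% of all measured genes, from -0.33 to 0.43. Among the 7 lists drawn, the ATF4-listed synthetases (median 1.17) and the ATF4 programme (median 1.09) have medians past 2-fold. Without centring these medians were 1.07 and 0.98, the latter under 2-fold. The lists drawn do not include the cell type markers.

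In the multisynthetase complex several cytosolic enzymes are held together by scaffold proteins. Medians inside and outside it were close. The 7 complex enzymes named here (Eprs, Iars, Kars, Lars, Mars1, Qars and Rars) all lay above 0, with 2 past 2-fold and a median of 0.89. The 13 cytosolic members outside the complex had 6 past 2-fold and a median of 0.94. Synthetases also fall into classes by the fold of the catalytic domain. The 9 cytosolic class I enzymes had a median of 0.89 and the 10 class II enzymes 0.79, with 4 past 2-fold in each, Eprs having a domain of each class and counting in neither.

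Mitochondrial synthetases went both ways around 0. Yars2, for tyrosine, was the one member past 2-fold upward in its brightest probe set, at 592.9 in knockout and 309.9 in wild-type cells (1.04). Its other probe set read 461.6 and 365.2 (0.44), and the gene was at 0.94 without centring. Cars2, for cysteine, read 582.7 and 392.4 (0.67), and its other measured probe set 395.3 and 158.9 (1.42). Both genes were thus higher on the knockout array in each measured probe set, at different sizes.

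Tars2, the mitochondrial threonine enzyme, was lower on the knockout array. It read 535.9 in knockout and 1160.3 in wild-type cells, 2.02-fold lower after centring, and its other probe set read 447.6 and 775.4 (-0.69). Quantile and loess scaling left it within 2-fold, as did the mean of both probe sets. Hars2, for histidine, read 269.1 and 397.7 (-0.46), with -0.48 in its other probe set. These 2 genes were lower in every probe set measured.

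Smaller differences were seen in the other mitochondrial members. Sars2 read 289.0 in knockout and 233.0 in wild-type cells (0.41), Nars2 350.7 and 285.6 (0.40), and Rars2 500.1 and 430.2 (0.32). Lars2 (0.21), Wars2 (0.19) and Iars2 (0.13) lay close to 0, and Iars2 had a dimmer probe set at -0.23. Below 0 were Pars2, for proline, at 315.1 and 420.6 (-0.31), Vars2 at 194.4 and 255.5 (-0.29) and Fars2 at 316.1 and 411.9 (-0.28). Aars2 read 158.4 and 177.2 (-0.06), and its sign changed under quantile and loess scaling.

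The remaining 2 mitochondrial members had no measured difference. Ears2, for glutamate, had a knockout signal of 123.2 and a wild-type signal of 64.4, the latter under the floor. This gives a difference of at least 0.94. A dimmer probe set of Ears2 went the other way, at 55.9 and 101.3. Mars2, for methionine, was below the floor on both arrays at 60.6 and 47.8, so it has no fold.

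Setting the enzymes for the same amino acid side by side gave 17 pairs, 15 of them measured on both sides. Genes recur in these pairs, since Eprs serves glutamate and proline and Fars2 was set against both Farsa and Farsb, so they are not independent. The cytosolic difference was the higher one in 13 pairs, and by at least 1 on the log2 scale in 7. Threonine enzymes were furthest apart, with Tars at 1.27 and Tars2 at -1.01. Alanine (Aars 1.41, Aars2 -0.06) and asparagine (Nars 1.73, Nars2 0.40) followed. In serine (Sars 0.13, Sars2 0.41) and tryptophan (Wars -0.26, Wars2 0.19) the mitochondrial difference was the higher. The tyrosine enzymes were both past 2-fold in their brightest probe sets.

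**Figure D4:**
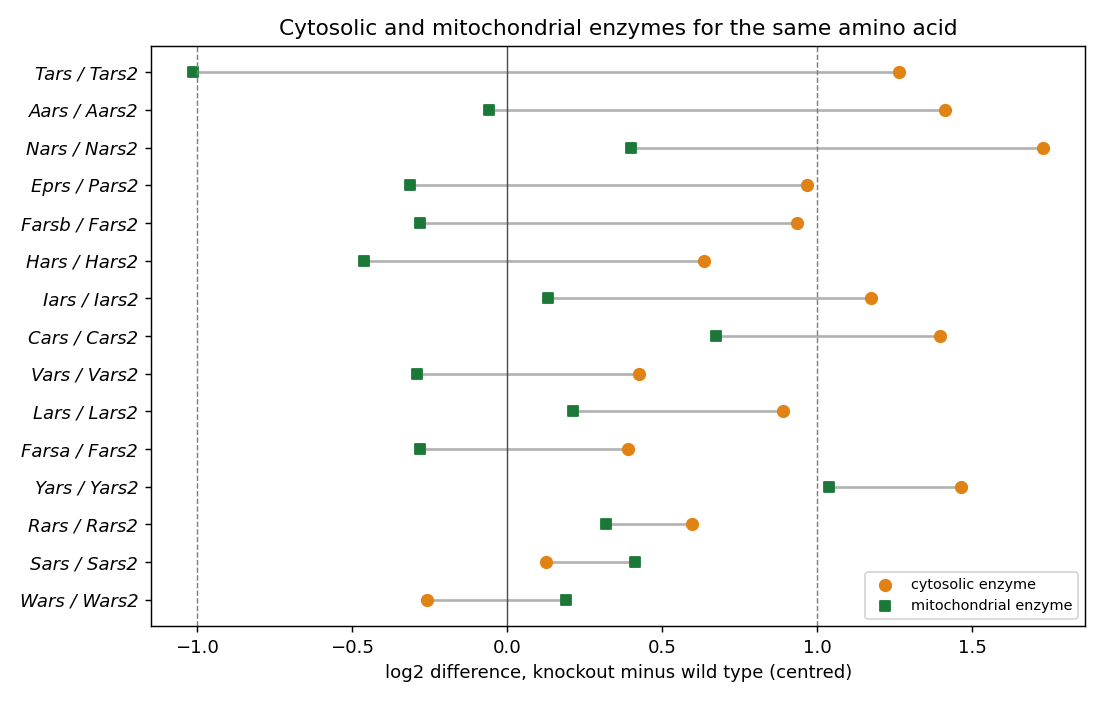
Centred log2 difference of the cytosolic (circles) and mitochondrial (squares) enzyme for the same amino acid in 15 pairs measured on both sides, sorted by the gap between them, with dashed lines at 2-fold. The circle lies to the right in 13 pairs, and the gap is widest for Tars and Tars2, 2.28 on the log2 scale.

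Probe sets give the only repeat measurement of a gene on these arrays. Of the 73 probe sets naming a member alone, 58 were measured on both arrays. Of 17 members with at least 2 such probe sets, 12 had all of them on the same side of 0, and Eprs, Farsa, Farsb, Iars2 and Wars did not. Over 4657 genes of the whole array, the SD of the difference between probe sets of the same gene, per probe set, was 0.36 on the log2 scale. This covers neither animals, cultures nor arrays. A single probe set was all there was for 13 members.

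**Figure D5:**
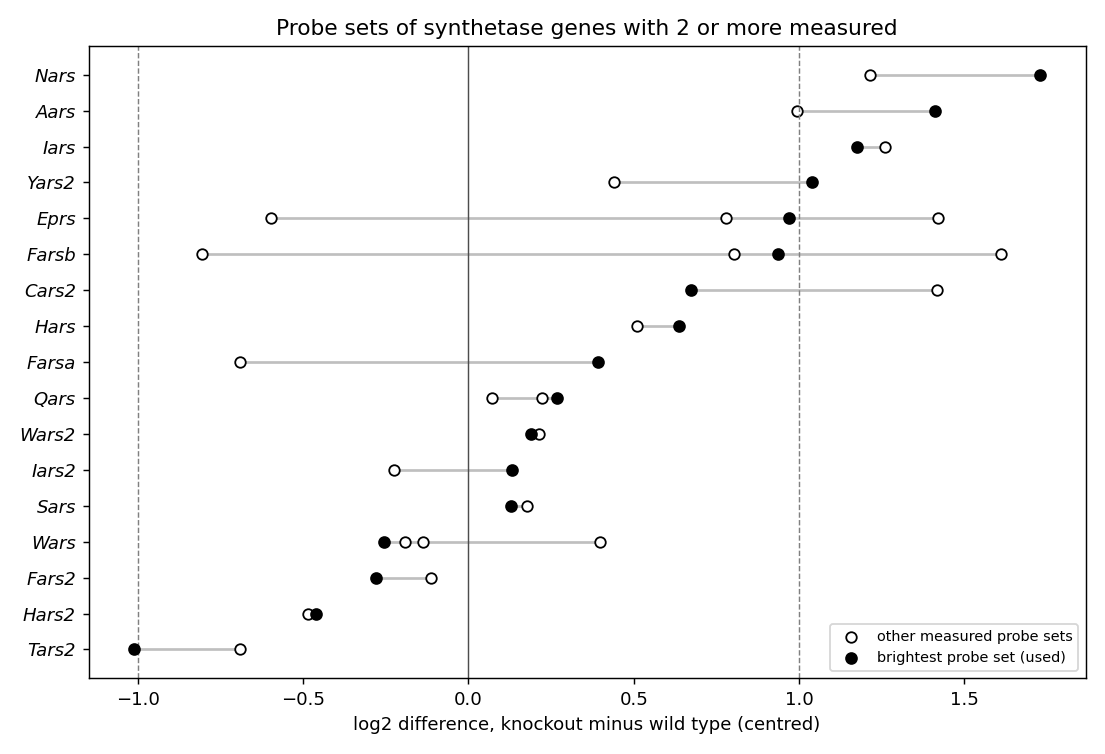
Centred log2 difference of every probe set measured on both arrays for the 17 synthetase genes with at least 2, the brightest filled and the others open, with dashed lines at 2-fold. Nars (1.73 and 1.21) and Iars (1.17 and 1.26) lie past 2-fold in all their probe sets, while Farsb runs from -0.81 to 1.61.

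Transcripts of proteins that work with the synthetases were mostly within 2-fold. Of 16 measured partner genes 3 passed 2-fold upward, 0 downward and 13 neither, with a median of 0.08. Of all measured genes, 7.15% passed 2-fold upward and 4.45% downward. Xpot, which exports tRNA from the nucleus, read 3072.7 in knockout and 1571.1 in wild-type cells (1.07). Qrsl1, a subunit of the mitochondrial enzyme that makes glutaminyl-tRNA from glutamyl-tRNA, read 1983.4 and 1024.1 (1.06). Aarsd1, an editing protein for mischarged alanine tRNA, read 738.6 and 390.4 (1.02). Without centring, Xpot (0.97), Qrsl1 (0.95) and Aarsd1 (0.92) were just under 2-fold, and the median of the partner genes was -0.03. Of the 3 scaffolds of the multisynthetase complex, Aimp2 was at 0.98 and Eef1e1 at 0.59, while Aimp1 read 3586.8 and 3942.3 (-0.03).

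Other translation factors had smaller median differences than the cytosolic synthetases. Of 8 cytosolic elongation and termination factors 1 passed 2-fold, Abce1, a ribosome recycling factor (1.24), and the median was 0.38. Gspt1 (0.75), Eif5a (0.44) and Etf1 (0.39) followed, and the abundant Eef1a1, which carries charged tRNA to the ribosome, read 36461.7 in knockout and 38540.0 in wild-type cells (0.02). Of 12 mitochondrial translation factors 0 passed 2-fold in either direction, with a median of 0.08 close to that of all measured genes. For lists this small, both counts are near the shares over all measured genes, 7.15% upward and 4.45% downward. Mtg2 (-0.97), Tsfm (0.48), Gfm1 (0.40) and Tufm (0.36) were furthest from 0.

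Many other genes of the ATF4 programme stood higher on the knockout array too. Of 26 measured, 14 passed 2-fold upward, 1 downward and 11 neither, with a median of 1.09. That median was 0.98 without centring. Among all measured genes, 7.15% passed 2-fold upward and 4.45% downward. The amino acid transporters Slc7a5 (6942.9 against 574.2, a difference of 3.70) and Slc7a3 (2.55), the cysteine-making enzyme Cth (2.65) and asparagine synthetase Asns (2.23) had the largest differences among those measured. Nupr1, a stress gene of the same list, was below the floor in wild type (306.0 against 56.3) and differed by at least 2.25. Atf4 itself read 7212.5 in knockout and 4163.8 in wild-type cells (0.90). Not all of the programme followed, since Ddit3, a stress factor that acts with ATF4, read 990.3 and 1265.2 (-0.25), Trib3 was at 0.43 and Vldlr, also a reported target, at -1.67. Asns and Nars, which make asparagine and charge it onto tRNA, were both past 2-fold.

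Other cell types and cell division moved with these values on the same arrays. Plasma cell markers measured on both arrays were all above 0, 9 of the 10 on the array, with a median of 1.53 and summed signals of 156117.7 in knockout and 80226.9 in wild-type cells. B cell markers were above 0 in all 12 measured of 13, with a median of 0.96 and sums of 40100.0 and 20570.8. Macrophage markers were above 0 in all 8 measured of 16, with a median of 1.61 and sums of 8092.3 and 1678.5. The macrophage and plasma cell medians were above that of the ATF4-listed synthetases. The B cell factor Pax5 and the macrophage genes Itgam and Marco were below the floor on both arrays, and C1qa, C1qb, C1qc, Mrc1, Msr1 and Fcgr1 in wild type alone. The T cell markers, lower in the knockout, had a median of -0.77. Proliferation genes were above 0 in all 13 measured of 14, with a median of 0.82 and sums of 108266.6 and 65772.4. The part of these in the synthetase differences was not tested. In RNA of whole cultures, more cells with high synthetase levels and more synthetase RNA per cell cannot be told apart.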

How the data were processed

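The authors deposited 1 linear intensity for each of 45101 Affymetrix probe sets per array, with 1 array per group. The sources used here do not name the software that summarised the probes. Both arrays had a trimmed mean (central 96% of values) of 500.004, a mark of global scaling before deposit, under which more of some abundant RNAs means lower values for others. Biotin-labelled cRNA came from 3 µg of total RNA, per the labels' protocols. Precision is limited by the number of arrays.

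Genes were named through the platform annotation, and all 36 members' gene identifiers were found in RefSeq (GRCm38.p6). The 64 control probe sets were left out. Signals below the array median were treated as at the floor. Log2 differences (knockout minus wild type) had subtracted from them their median, -0.10, over the 20834 probe sets that reached the floor in both samples. The probe set with the highest mean log2 signal stands for a gene. Where 1 array was below the floor, the difference is a bound against that floor. No test was run. The calling of 2-fold genes was tested on simulated data, with differences well beyond 2-fold planted in bright genes. Calls near the 2-fold line and in dim genes were not covered by it. Python 3.11.15, NumPy 2.4.6, pandas 2.3.3 and statsmodels 0.14.6 were used.

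Every member is named, and of each related list the 4 genes with the largest absolute difference. Other genes named (Atf4, Ddit3, Trib3, Vldlr, Nupr1, Aimp1, Eef1e1, Alb, single markers, Eef1a1, Eif2s3y and Xist) and the promoter motifs were chosen after their values were seen. The members and lists were chosen with earlier results of these data known. Alternatives were no centring, quantile normalization, loess (span 0.3), a floor at the 70th percentile, no floor, the mean over probe sets, and leaving out _x_at and _s_at probe sets. Some sequences are not reported here.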

Additional observations from a re-analysis of the deposited data

Results flagged for a closer look

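A probe set annotated to both Aars and Exosc6, an exosome subunit gene, was outside every comparison because it names more than 1 gene. Its signals were 738.2 (knockout) and 558.9 (wild type), a centred log2 difference of 0.50, on the same side of 0 as the Aars probe sets and smaller than either.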

How the results depend on the processing

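No paired analysis was possible because knockout and wild type were hybridised to 1 array apiece. Under the 7 alternatives the count of cytosolic synthetases at least 2-fold higher ran from 6 to 7 (8 as reported), their median from 0.64 to 0.90, and the count at least 2-fold lower was 0 throughout. Gars left the count without centring, with no floor, with the floor at the 70th percentile, and after quantile or loess scaling. Cars was not measured, and left it, with the floor at the 70th percentile or with probe sets averaged. The count of mitochondrial synthetases at least 2-fold higher was 0 without centring, with probe sets averaged and on leaving out _x_at and _s_at probe sets, and was 2 with no floor. The count at least 2-fold lower was 0 after quantile normalization, after loess and with probe sets averaged. The mitochondrial median ran from -0.05 to 0.21. Of 229 values of single members under the alternatives, 223 moved by less than the 0.36 between probe sets. That was largely set in advance, since no centring or a changed floor shifts every measured member by the same small constant. The 6 that moved more all came from averaging or leaving out probe sets. Averaging took in dim probe sets for Farsa (-0.59), Lars2 (-0.18) and Nars2 (-0.04). Leaving out _x_at and _s_at probe sets moved Farsb to -0.81, Aars to 0.99 and Yars2 to 0.44. Signals near the floor, as for Ears2, Mars2, Wars2 and Aars2, limit what can be read from those genes.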
